A study of Homo sapiens with 8 samples.

Results

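The insulin-like growth factor (IGF) family was followed in human oligodendrocyte progenitor cells (OPCs) grown on 3 coating substrates. The 10 genes described are the ligands IGF1 and IGF2, the receptors IGF1R and IGF2R, and the binding proteins IGFBP2, IGFBP3, IGFBP4, IGFBP5, IGFBP7 and IGFBPL1. They are members of the family by name, out of 58217 genes with a transcript in the files, and were picked with earlier results of these data known; IGFBP1 and IGFBP6 are described apart from them. The OPCs were derived from the established embryonic stem cell line H9 and had no forced expression of SOX10. They were kept for 2 days in OPC medium on Matrigel, on VN or on VNP2, and polyadenylated RNA was sequenced from 2 Matrigel, 3 VN and 3 VNP2 libraries. Matrigel is a basement membrane extract of a mouse tumour and served as the control, VN is recombinant vitronectin, an adhesive protein of plasma and matrix, and VNP2 is a synthetic peptide designed from vitronectin around its RGD integrin-binding motif. The paper describes its peptides as recombinant fusions with mussel adhesive protein, immobilized on chemically activated vessels. The part of this carrier and coating in differences of VNP2 from the other substrates was not tested. The medium was common to all groups and held added insulin, basic fibroblast growth factor, retinoic acid and a Smoothened agonist, and its listed components do not include an IGF.

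IGF1 and IGF2 are secreted peptides that bind IGF1R, a receptor tyrosine kinase that signals through insulin receptor substrates to PI3K and AKT. IGF2R, also the mannose 6-phosphate receptor, takes up IGF2 and delivers it to lysosomes, and binding proteins hold the ligands in the extracellular space until proteases release them. In the oligodendrocyte lineage IGF signalling is known for its role in survival and in myelination.

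IGFBP3 was lower on both vitronectin-based substrates than on Matrigel, at 0.331 of its Matrigel level on VN and 0.309 on VNP2. IGF1R, IGFBP2, IGFBP4 and IGFBP5 were lower on both as well, and IGFBPL1 was higher on both. IGF2 separated VN from VNP2: it was 30.2% lower on VN than on Matrigel, and 1.57-fold higher on VNP2 than on VN. IGFBP7 passed the test in no pair of substrates, and IGF1 was near the detection limit in every library.

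The libraries held 37997896 to 39429453 estimated counts each. OLIG1 and OLIG2, which the paper describes as essential for oligodendrocyte differentiation, were expressed, whereas SOX10 reached 20 counts over all 8 libraries and was at 0 in 2 of them. Among the other OPC markers looked at, PTPRZ1 reached 141122 counts over all libraries, NKX2-2 5378, PDGFRA 4716 and CSPG4 1379. Replicates differed by more than sampling noise, with a median chi-square per gene of 0.722 to 3.20 where 0.455 is what sampling alone gives, and the largest values were those of VN replicate 1 against the other VN libraries. Nothing in the labels says that replicates came from separate cultures, so p-values measure the spread between these libraries, which may be technical. All values below are normalized counts (counts per library scaled for library size and transcript length) unless TPM, a level scaled for transcript length and library size, is named. In bulk RNA, fewer cells of a type and less RNA per cell cannot be told apart.

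**Figure D1:**
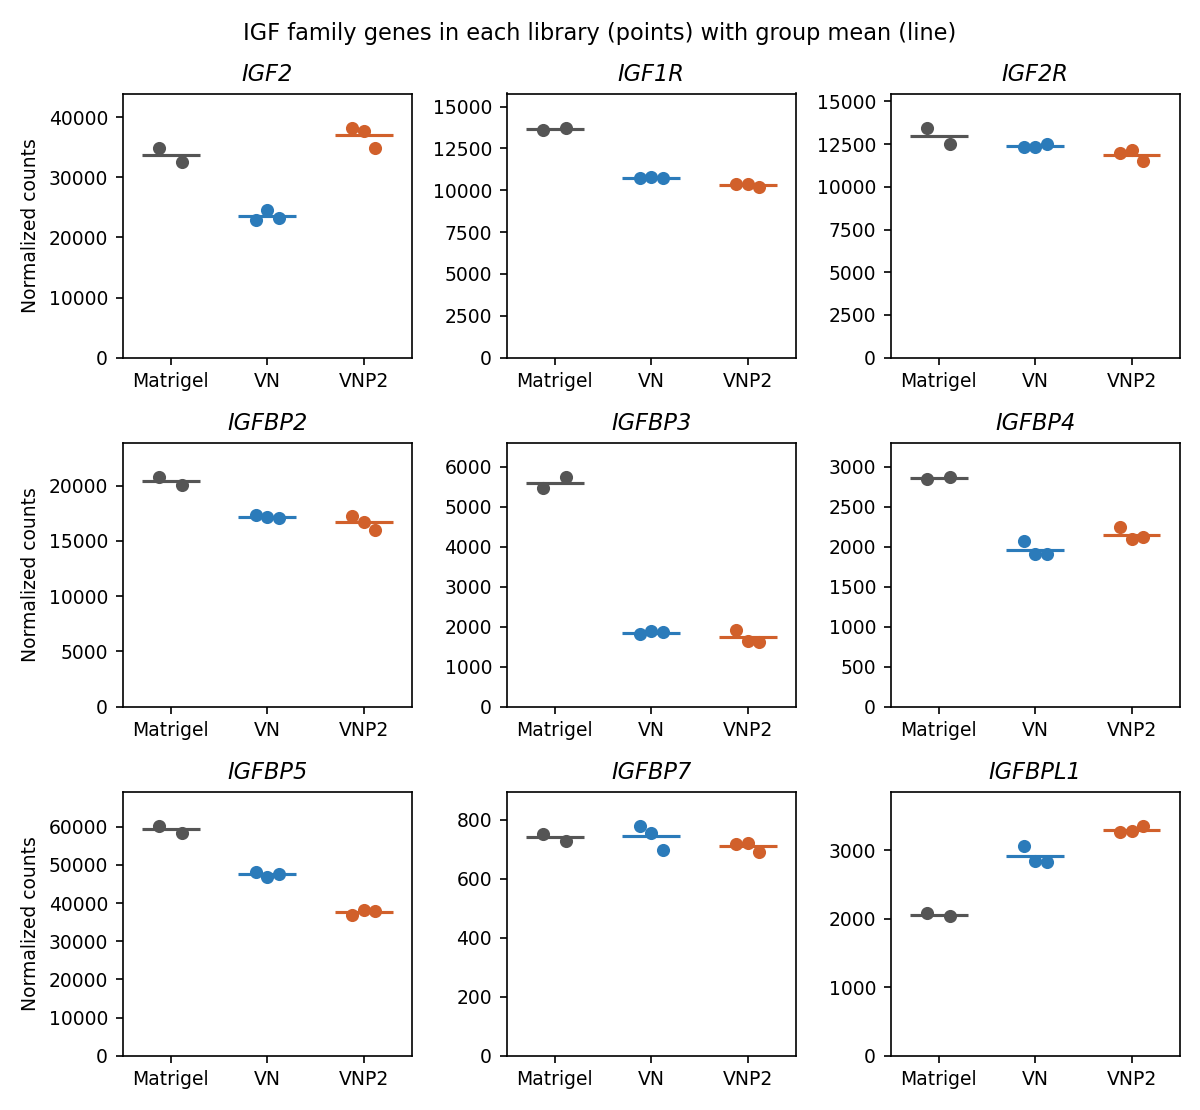
Normalized counts for the 9 tested members, with 1 point per library and a line at the mean of each substrate (2 Matrigel, 3 VN and 3 VNP2 libraries); every vertical axis starts at 0. IGFBP3 stands between 5465 and 5748 on Matrigel and between 1625 and 1923 on the other substrates, and IGF2 is lowest in the 3 VN libraries.

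Of the 10 members, 9 passed the filter on low counts and were tested. On VN against Matrigel, 7 of the 9 were called at an adjusted p under 0.05, 1 higher and 6 lower, where 15.3% of all 18201 tested genes were called (5.66% as rises, 9.6% as falls). On VNP2 against Matrigel 6 were called, 1 higher and 5 lower, against 16.6% of all genes (7.44% higher and 9.13% lower). Between VNP2 and VN the calls numbered 3, of which 2 were rises and 1 a fall on VNP2, against 5.1% of all genes (3.09% higher and 2.01% lower). The members are well expressed, and among the 8707 genes at or above the mean level of IGFBP7, the lowest tested member, the shares called were 21.5%, 21.1% and 6.27%. A change of at least 1.5-fold was called for 1, 3 and 1 members in the 3 pairs (3.65%, 5.41% and 1.6% of all genes). The libraries of the pair did not overlap for 8, 9 and 6 of the 9 members, where 44.4%, 48.1% and 23.6% of all genes had no overlap. The median log2 fold change of the 9 members was -0.32, -0.29 and -0.056 in the 3 pairs, and that of all tested genes was 0.0044, 0.0024 and 0.00073. Both comparisons with Matrigel share its 2 libraries, so they are given side by side and not as independent evidence. Across the 3 substrates in 1 test, 7 of the 9 members differed, the exceptions being IGF2R (adjusted p = 0.0973) and IGFBP7 (adjusted p = 0.652, edgeR's quasi-likelihood test with Benjamini-Hochberg adjustment), and 19.3% of all genes differed.

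**Figure D2:**
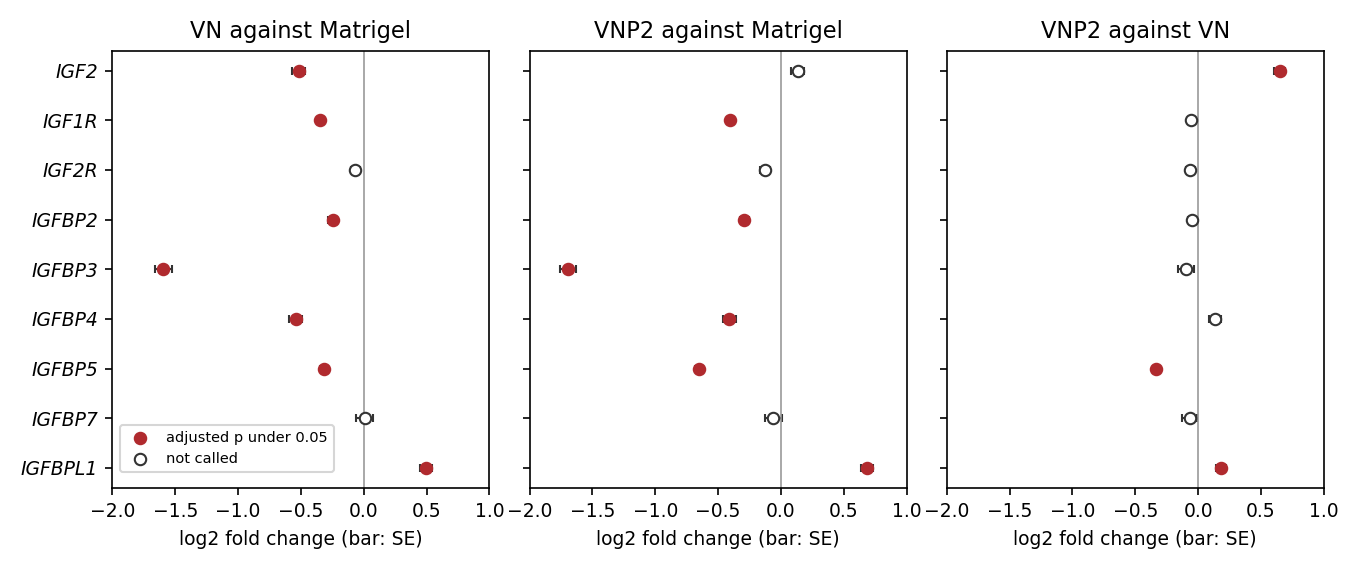
Log2 fold change of each tested member in the 3 pairs of substrates, with bars of 1 standard error (SE); filled points passed an adjusted p of 0.05. IGFBP3 lies furthest from 0 against Matrigel, at -1.60 and -1.69, and IGF2 at 0.65 lies furthest from 0 between VNP2 and VN.

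IGF2, the main ligand RNA of these cells, lies on chromosome 11 (GRCh38, chr11:2129112-2149603, minus strand) and is expressed from the paternal allele in most fetal tissues. Its normalized counts were 34894 and 32579 for Matrigel, 22861, 24601 and 23164 for VN, and 38223, 37731 and 34959 for VNP2. The VN libraries were the 3 lowest, and the lowest VNP2 library lay just above the highest Matrigel library. On VN, IGF2 fell by 0.52 on the log2 scale against Matrigel (SE 0.049, adjusted p = 6.27e-05, edgeR's quasi-likelihood test with Benjamini-Hochberg adjustment). On VNP2 it exceeded VN by 0.65 (SE 0.044, adjusted p = 3.91e-05 in the same edgeR test). The difference of VNP2 from Matrigel was 0.13 (SE 0.049, 95% confidence interval 0.023 to 0.24) and did not pass the adjusted threshold (edgeR adjusted p = 0.0997), although DESeq2 gave an adjusted p of 0.0448. Over 17 alternative settings that adjusted p ran from 0.0448 to 0.474.

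The IGF2 counts were spread over several transcripts that begin at different positions. ENST00000416167 held 43.9% ± 2.92 (SD, n = 2) of the gene's TPM on Matrigel, 45.5% ± 1.67 (n = 3) on VN and 47.0% ± 1.53 (n = 3) on VNP2. The level of this transcript was 115 to 134 TPM on Matrigel, 87.4 to 104 TPM on VN and 144 to 164 TPM on VNP2. ENST00000381395 held 27.8%, 26.0% and 25.6% on the 3 substrates and ENST00000381406 held 22.8%, 20.8% and 20.7%. Each of the 3 transcripts was therefore lowest on VN, with no overlap between VN and VNP2 in any of them. Salmon divides reads shared by overlapping transcripts by a model, so these shares are estimates.

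H19, a long noncoding RNA that is reciprocally imprinted with IGF2 and expressed from the maternal allele, lies 127.641 kb from it on the same chromosome. Its normalized counts were 40483 and 35331 for Matrigel, 24382, 32351 and 31370 for VN, and 46952, 45652 and 42664 for VNP2. No substrate overlapped another, and VN replicate 1 was the lowest library. Before scaling, its estimated counts were the highest of the VN libraries, at 28679 against 27817 and 26309. The mean effective transcript length assigned to H19 was 2142 bases in that library and 1569 and 1553 in the other VN libraries. Its low normalized value therefore rests on how reads were assigned to transcripts. On VN against Matrigel its log2 fold change was -0.37 (SE 0.10, edgeR adjusted p = 0.0373), a call lost with DESeq2 (adjusted p = 0.0574), without Matrigel replicate 2 (-0.26, edgeR adjusted p = 0.273) and in 5 other alternatives of 17. Without VN replicate 1 it was -0.25 (edgeR adjusted p = 0.0204). H19 was 0.62 higher on VNP2 than on VN (SE 0.094, edgeR adjusted p = 0.00366). The ratio of IGF2 to H19 in TPM was 0.326 ± 0.0155 (SD, n = 2) on Matrigel, 0.297 ± 0.0399 (n = 3) on VN and 0.299 ± 0.00228 (n = 3) on VNP2. The groups overlapped in that TPM ratio only through VN replicate 1, whose 0.342 was the highest of all libraries. The ratio depends on the transcript length assigned to H19, which was longest in that library. The order of the substrates in this ratio is therefore not resolved. IGF2-AS, an antisense RNA within the IGF2 locus, had 82 and 69 normalized counts for Matrigel, 85, 63 and 91 for VN, and 123, 163 and 160 for VNP2. It was 0.90 higher on VNP2 than on VN (SE 0.18, edgeR adjusted p = 0.0161) and 0.97 higher than on Matrigel (SE 0.20, edgeR adjusted p = 0.00798). The library kit keeps strand, but the strand setting of the quantification is not given in the sources used here, so reads of IGF2 and of its antisense partner may not have been told apart.

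**Figure D3:**
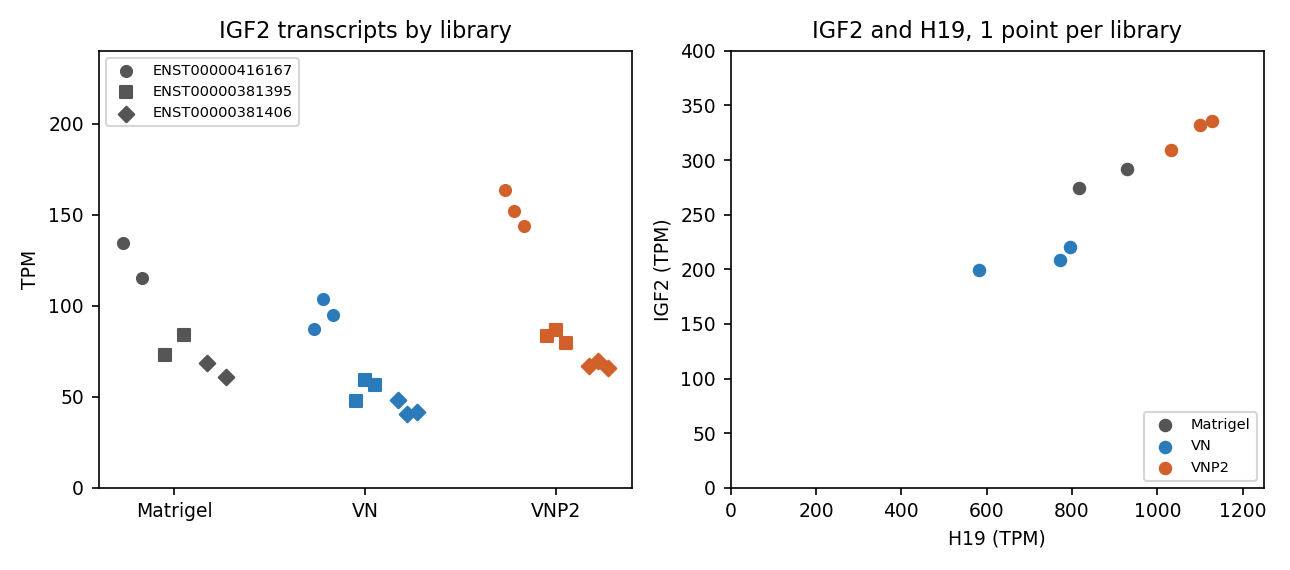
Left, TPM of the 3 leading IGF2 transcripts, with 1 point per library by substrate; right, IGF2 TPM against H19 TPM, with 1 point per library. In both panels the VN libraries are lowest in IGF2, at a summed ligand level of 200 to 221 TPM against 275 to 292 on Matrigel and 309 to 335 on VNP2.

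The genes whose profile over the 8 libraries was most like that of IGF2, by Pearson's r of log2 CPM (counts scaled to library size) among 12993 candidates, were UBASH3B (r = 0.992), SFRP1 (0.985), DISC1 (0.985), EFNB2 (0.984) and CGNL1 (0.983). SFRP1 is a secreted Wnt inhibitor and EFNB2 an ephrin ligand. The mean normalized counts of UBASH3B were 923, 613 and 966 on Matrigel, VN and VNP2, the same order of substrates as for IGF2. These correlations are a description of libraries that share their substrates, and carry no test.

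IGF1, on chromosome 12 (GRCh38, chr12:102395874-102481744, minus strand), was barely detected. Its estimated counts were 4 and 12 for Matrigel, 3, 5 and 4 for VN, and 2, 1 and 1 for VNP2, or 32 in all. Matrigel replicate 3 was the highest and the VNP2 libraries the lowest, but 4 of the 8 libraries were at or under 3 counts, and the gene failed the filter and was not tested. The values in the authors' normalized table ran from 0.630 to 25.6 and spread more widely than the counts, since the mean effective transcript length assigned to the gene ran from 1117 to 5752 bases between libraries. INS and the INS-IGF2 readthrough had 0 counts, so that IGF2 made up nearly all of the ligand RNA in all 8 libraries.

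Of the receptors, IGF1R was called lower than on Matrigel on both other substrates, and IGF2R was called in no pair. IGF1R, the signalling receptor (GRCh38, chr15:98648539-98964530, plus strand), had 13570 and 13719 normalized counts for Matrigel, 10718, 10770 and 10706 for VN, and 10345, 10399 and 10222 for VNP2. Both Matrigel libraries stood above all others, and the VN libraries stood above the VNP2 libraries by a narrow margin. IGF1R fell by 0.35 on VN (SE 0.030, adjusted p = 3.36e-05) and fell by 0.40 on VNP2 (SE 0.030, adjusted p = 7.57e-06, edgeR's quasi-likelihood test with Benjamini-Hochberg adjustment). The difference between VNP2 and VN was -0.056 with a 95% confidence interval from -0.12 to 0.0034, and did not pass the test (edgeR adjusted p = 0.285).

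IGF2R (GRCh38, chr6:159969099-160113507, plus strand) had 13450 and 12501 normalized counts for Matrigel, 12323, 12363 and 12497 for VN, and 11964, 12148 and 11499 for VNP2. The groups did not overlap, but the gap between Matrigel replicate 3 and the highest VN library was only a few counts. No pair passed the test, with log2 fold changes of -0.066 on VN (edgeR adjusted p = 0.300), -0.13 on VNP2 (0.0510) and -0.062 between VNP2 and VN (0.376). The VNP2 difference from Matrigel lay at the threshold and was called in 9 of 17 alternative settings, with adjusted p from 0.0164 to 0.436. ENST00000650503, a transcript with a retained intron, held 38.9%, 34.0% and 36.7% of the gene's TPM on Matrigel, VN and VNP2. Without offsets for transcript length, IGF2R was called lower on VN (log2 fold change -0.21, edgeR adjusted p = 0.00927).

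On the length-normalized scale, the ratio of IGF2R to IGF1R was 1.22 ± 0.0726 (SD, n = 2) on Matrigel, 1.48 ± 0.0138 (n = 3) on VN and 1.48 ± 0.0287 (n = 3) on VNP2. INSR, the insulin receptor, which also forms hybrids with IGF1R, had a mean of 6.19, 7.20 and 7.60 TPM on the 3 substrates. It was higher on VNP2 than on Matrigel (log2 fold change 0.23, SE 0.057, edgeR adjusted p = 0.0199) and was not called on VN (0.14, SE 0.057). The INSR call on VNP2 held in 13 of 17 alternative settings. The ratio of IGF1R to INSR was 7.93 ± 0.287 for Matrigel, 5.69 ± 0.315 for VN and 5.12 ± 0.0808 for VNP2, and the substrates did not overlap. These ratios carry no test.

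IGFBP2 was the most abundant member per length on all 3 substrates. Mean levels on Matrigel, VN and VNP2 were 846, 756 and 724 TPM for IGFBP2, which ranked 169 among all genes by mean TPM, and 385, 326 and 256 TPM for IGFBP5, which ranked 425. IGFBP3 stood at 115, 40.4 and 37.3 TPM and IGFBP4 at 66.9, 48.6 and 52.8 TPM. IGFBP7 stood at 36.7, 39.0 and 36.8 TPM and IGFBPL1 at 29.3, 43.9 and 49.3 TPM. On Matrigel the order was therefore IGFBP2, IGFBP5, IGFBP3, IGFBP4, IGFBP7 and IGFBPL1, and on VN and VNP2 IGFBPL1 no longer came last. The ranges of IGFBP3 and IGFBP7 overlapped on both, at 38.8 to 41.5 and 37.0 to 40.1 TPM on VN, so that their order there is not resolved.

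The proximal promoters of 3 binding protein genes are shown, those of the largest fall against Matrigel, of the one member called lower in all 3 pairs, and of the one member called higher against Matrigel. Each is the 250 bases before the RefSeq start (GRCh38.p14), written 5′ to 3′ on the gene's minus strand.
IGFBP3, chr7:45921273-45921522: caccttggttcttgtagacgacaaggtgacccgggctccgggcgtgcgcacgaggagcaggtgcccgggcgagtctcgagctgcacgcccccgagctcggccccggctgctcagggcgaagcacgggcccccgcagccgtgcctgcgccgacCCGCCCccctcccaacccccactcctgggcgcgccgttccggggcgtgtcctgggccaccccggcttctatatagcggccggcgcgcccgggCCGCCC
IGFBP5, chr2:216695550-216695799: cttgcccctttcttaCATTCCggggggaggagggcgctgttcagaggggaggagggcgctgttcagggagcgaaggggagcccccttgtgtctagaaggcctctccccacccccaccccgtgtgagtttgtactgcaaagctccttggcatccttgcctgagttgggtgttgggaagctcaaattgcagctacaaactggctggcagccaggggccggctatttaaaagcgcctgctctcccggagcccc
IGFBPL1, chr9:38424455-38424704: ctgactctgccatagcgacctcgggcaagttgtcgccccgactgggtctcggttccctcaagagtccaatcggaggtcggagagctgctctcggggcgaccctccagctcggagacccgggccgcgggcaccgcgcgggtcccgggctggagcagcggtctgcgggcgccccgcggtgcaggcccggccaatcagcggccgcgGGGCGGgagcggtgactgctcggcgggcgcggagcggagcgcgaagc
Capitals mark matches to the motifs searched on either strand: GGGCGG, a GC box of the kind bound by SP1, in IGFBP3 (as its reverse complement) and IGFBPL1, and GGAATG, the core bound by TEAD factors, in IGFBP5 (as its reverse complement). Among all 35116 RefSeq promoters of the same length, 42.6% held GGGCGG and 11.9% held GGAATG. A promoter window was found for 8 of the members, and GGGCGG occurred in 6 of these, whereas TGANTCA, the AP-1 motif, occurred in none and in 6.57% of all promoters. GTAAACA, the FOXO motif (2.98% of promoters), occurred in IGF1, and TATAAA, the TATA box (10.7%), in IGFBP4. The matches describe these letters and no binding was measured. IGF2 and IGFBP7 had no entry in the promoter table.

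IGFBP3, the main carrier of IGFs in plasma, showed the largest difference from Matrigel of all tested members (GRCh38, chr7:45912245-45921874, minus strand). Its normalized counts were 5465 and 5748 for Matrigel, 1813, 1888 and 1863 for VN, and 1923, 1649 and 1625 for VNP2. Both Matrigel libraries lay far above the other 6, among which VN and VNP2 overlapped. IGFBP3 fell by 1.60 on VN (SE 0.066, adjusted p = 2.19e-07) and fell by 1.69 on VNP2 (SE 0.066, adjusted p = 1.08e-07, edgeR's quasi-likelihood test with Benjamini-Hochberg adjustment). By the size of its log2 fold change it ranked 227 of 18201 genes on VN and 224 on VNP2. VNP2 and VN did not differ detectably (-0.098, 95% confidence interval -0.24 to 0.040, edgeR adjusted p = 0.429).

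IGFBP5, a binding protein also held in extracellular matrix, had 60210 and 58420 normalized counts for Matrigel, 48040, 46791 and 47695 for VN, and 36938, 38185 and 38012 for VNP2. The 3 groups stood apart in the order Matrigel, VN, VNP2. IGFBP5 fell by 0.32 on VN (SE 0.030, edgeR adjusted p = 6.20e-05) and fell by 0.65 on VNP2 (SE 0.030, edgeR adjusted p = 2.52e-07), and was 0.33 lower on VNP2 than on VN (log2 fold change -0.33, SE 0.027, edgeR adjusted p = 8.79e-05). It was the only member called lower between VNP2 and VN.

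IGFBP2, a binding protein of the fetal brain, lies 7668 bases from IGFBP5 on chromosome 2, on the opposite strand. Its normalized counts were 20793 and 20026 for Matrigel, 17322, 17200 and 17105 for VN, and 17235, 16758 and 16029 for VNP2. Matrigel stood above both other groups, which overlapped. IGFBP2 fell by 0.25 on VN (SE 0.037, edgeR adjusted p = 0.00146) and fell by 0.29 on VNP2 (SE 0.037, edgeR adjusted p = 0.000345), and did not differ detectably between VNP2 and VN (-0.046, 95% confidence interval -0.12 to 0.028).

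IGFBP4, which is cut by the protease PAPPA when IGF is bound, had 2846 and 2872 normalized counts for Matrigel, 2070, 1911 and 1909 for VN, and 2243, 2095 and 2117 for VNP2. Matrigel was again highest and VN lowest, and the highest VN library lay just below the lowest VNP2 library. IGFBP4 fell by 0.54 on VN (SE 0.052, edgeR adjusted p = 7.33e-05) and fell by 0.41 on VNP2 (SE 0.052, edgeR adjusted p = 0.000345). The difference of 0.13 between VNP2 and VN was not called (edgeR adjusted p = 0.154), and without VN replicate 1 it was 0.17 with an adjusted p of 0.0342.

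IGFBPL1, a binding protein-like gene known from the developing forebrain, ran the other way. Its normalized counts were 2081 and 2036 for Matrigel, 3060, 2840 and 2824 for VN, and 3269, 3281 and 3354 for VNP2. The groups did not overlap. IGFBPL1 was 0.50 higher on VN than on Matrigel (SE 0.047, edgeR adjusted p = 7.26e-05) and 0.68 higher on VNP2 (SE 0.048, edgeR adjusted p = 4.89e-06). The further step of 0.18 from VN to VNP2 passed at an edgeR adjusted p of 0.0294, but leaving out any 1 library other than VN replicate 1 ended the call, with adjusted p up to 0.116.

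IGFBP7, a low-affinity member that binds IGFs weakly, had 752 and 728 normalized counts for Matrigel, 778, 753 and 698 for VN, and 718, 721 and 691 for VNP2. The VN range covered the Matrigel range. Its log2 fold changes were 0.0056 on VN (95% confidence interval -0.14 to 0.15), -0.061 on VNP2 (-0.21 to 0.087) and -0.066 between VNP2 and VN (-0.20 to 0.066), and none was called (edgeR adjusted p = 0.967, 0.612 and 0.593).

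As a sum, the 6 binding proteins reached 1479 ± 20.1 TPM (SD, n = 2) on Matrigel, 1254 ± 7.60 (n = 3) on VN and 1157 ± 23.8 (n = 3) on VNP2. IGFBP2 made up 57.2%, 60.3% and 62.6% of that sum and IGFBP5 26.0%, 26.0% and 22.2%. IGFBP3 made up 7.80% on Matrigel and 3.22% and 3.23% on VN and VNP2, whereas IGFBPL1 went from 1.98% to 3.50% and 4.26%. Set against the ligands, binding protein TPM was 5.22 ± 0.153 times ligand TPM on Matrigel, 5.99 ± 0.272 on VN and 3.56 ± 0.0926 on VNP2. The 3 groups did not overlap in this ratio, which was highest on VN, where IGF2 was lowest, and lowest on VNP2. The ratio is one of RNA levels, carries no test and says nothing of secreted protein.

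**Figure D4:**
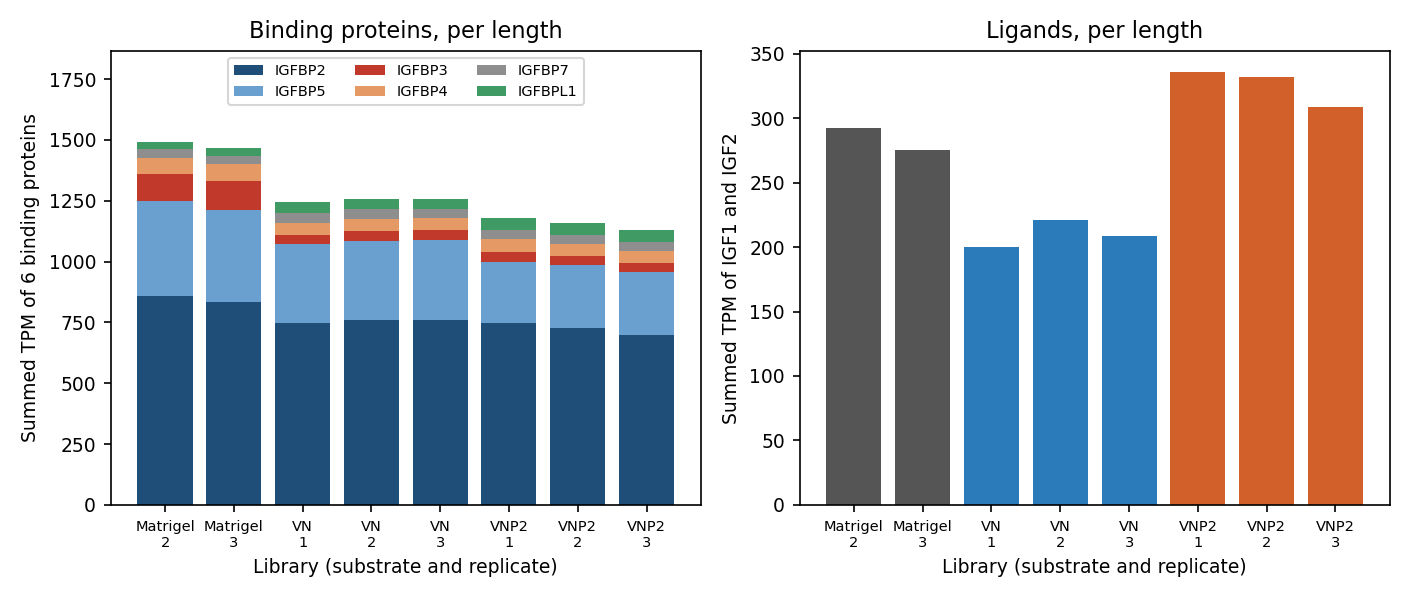
Left, summed TPM of the 6 binding proteins in each library, stacked by gene; right, summed TPM of IGF1 and IGF2 in each library, coloured by substrate; both axes start at 0. The binding protein sum is highest in the 2 Matrigel libraries, and the ligand sum is lowest in the 3 VN libraries.

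Markers of other cell types moved with the substrates beside these genes. The summed level of 13 mesenchymal markers was 1065 to 1098 TPM on Matrigel, 754 to 788 on VN and 675 to 702 on VNP2, and every marker was detected in all groups. The list did not move in 1 direction. Calls against Matrigel among the 13 were 3 rises and 4 falls for VN, then 5 rises and 4 falls for VNP2. They made up 53.8% and 69.2% of the list, where 15.3% and 16.6% of all tested genes were called. Among genes at or above the level of IGFBP7 the shares were 21.5% and 21.1%. These shares of all genes also stand beside the marker lists that follow. TAGLN, a smooth muscle actin-binding protein, went from a mean of 497 TPM on Matrigel to 121 and 106. This gene alone accounted for all or nearly all of the fall in the sum, whose means were 1081, 774 and 690 TPM. COL1A1 went from 159 to 116 and 63.1 TPM, whereas LUM was 101, 160 and 131 TPM and DCN 81.3, 124 and 108 TPM. The part of these cells in the IGFBP3 difference was not tested. Neuronal markers summed to 375 to 381 TPM for Matrigel, 482 to 522 for VN and 500 to 533 for VNP2, with 5 and 6 of 8 called higher against Matrigel and none lower. OPC markers summed to 215 to 217, 282 to 296 and 310 to 334 TPM, with 3 and 6 of the 6 tested called higher against Matrigel. PTPRZ1 was the largest part of this sum, at a mean of 108, 151 and 178 TPM. OLIG1 stood at 48.2, 62.6 and 66.9 TPM and OLIG2 at 41.3, 54.0 and 50.8 TPM. PDGFRA and CSPG4 were low, at 3.76, 4.53 and 4.94 TPM and at 0.642, 0.804 and 1.06 TPM. SOX10, which was not tested, was at a mean of 0, 0.049 and 0.057 TPM. The part of these changes in the IGFBPL1 difference was not tested either. Pluripotency markers summed to 92.1 to 97.0, 83.3 to 85.3 and 76.3 to 79.8 TPM, with 1 of 6 called on VN, lower, and 4 on VNP2, 3 lower and 1 higher. Choroid plexus markers summed to 117 to 126, 143 to 150 and 140 to 149 TPM, but OTX2, a homeobox factor that other neural cells also express, made up nearly all of this at a mean of 119.7, 144.5 and 144.3 TPM. It was the 1 of 3 tested that was called on each substrate, and TTR had 34 counts in all. Endothelial, neural crest and astrocyte markers reached at most 26.0 TPM in sum. PECAM1 had 36 counts in all, but KDR had 9330 and CLDN5 had 1884. TEK and CDH5, 2 of the 4 endothelial genes tested, were called lower on VN and on VNP2 than on Matrigel. Of 5 neural crest and 3 astrocyte genes tested, at most 2 and 1 were called in any pair.

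Of 74 other genes of the insulin and IGF pathway, 67 were tested. On VN against Matrigel 21 were called, 7 higher and 14 lower, on VNP2 against Matrigel 20, 8 higher and 12 lower, and between VNP2 and VN 8, 6 higher and 2 lower. These are 31.3%, 29.9% and 11.9% of the list, where 15.3%, 16.6% and 5.1% of all tested genes were called and 21.5%, 21.1% and 6.27% of those at or above the level of IGFBP7. Their median log2 fold changes were -0.033, -0.020 and -0.0095. The counts against Matrigel dropped to 10 or 11 without either Matrigel library, and with a term for replicate number the split on VN was 11 higher and 9 lower. Of the 49 calls over the 3 pairs, 27 were lost without 1 or the other Matrigel library, 4 with DESeq2, and 19 were kept in every alternative that tested the gene. Among the genes named below, the calls of ADAM9, HTRA1, PAPPA, IRS1, SHC1 and PIK3R1 were kept in all 17.

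Of the proteases that release IGF from binding proteins, and their inhibitors, 4 of 7 tested were called on both substrates against Matrigel, 1 higher and 3 lower, which is 57.1% of a short list beside 15.3% and 16.6% of all genes. The shares among genes at or above the level of IGFBP7 were 21.5% and 21.1%. ADAM9, a membrane metalloprotease, fell by 0.65 on VN and fell by 0.64 on VNP2 (SE 0.050 for both, edgeR adjusted p = 1.66e-05 and 1.20e-05). STC2, a stanniocalcin that inhibits PAPPA, fell by 0.54 on VN and fell by 0.29 on VNP2 (edgeR adjusted p = 0.00200 and 0.0387). Its call held in all 17 alternatives on VN but in 11 on VNP2. HTRA1, a secreted serine protease, was 0.53 and 0.44 higher (edgeR adjusted p = 0.000218 and 0.000571). PAPPA, the protease of IGFBP4, was named after its values were seen and fell by 0.31 and fell by 0.27 (edgeR adjusted p = 0.00107 and 0.00197). Between VNP2 and VN 0 of the 7 were called by edgeR, by DESeq2 or by limma, with 2 at an unadjusted p under 0.05.

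IGFBP6, a binding protein with a preference for IGF2, was low, at 72 and 68 normalized counts on Matrigel and 32 to 46 in the other libraries. Its log2 fold change was -0.71 on VN (SE 0.21, edgeR adjusted p = 0.0409) and -0.86 on VNP2 (SE 0.21, edgeR adjusted p = 0.0165). DESeq2 called neither (adjusted p = 0.132 and 0.0562), and the calls held in 6 and 12 of 16 alternatives. IGFBP1, which lies 18576 bases from IGFBP3, had 5 counts over all libraries. The 3 IGF2 mRNA binding proteins, IGF2BP1, IGF2BP2 and IGF2BP3, were called in 0 of the 3 pairs by edgeR, DESeq2 and limma, and at an unadjusted p under 0.05 in edgeR 0, 2 and 1 of them passed.

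Among 12 adaptors that carry the receptor signal, 3 were called lower on VN, and 2 were called lower and 1 higher on VNP2. That share of 25% on each substrate lay near the 21.5% and 21.1% of all genes at or above the level of IGFBP7. IRS1, the insulin receptor substrate that recruits PI3K, had 6375 and 6244 normalized counts on Matrigel, 4000 to 4232 on VN and 4672 to 4820 on VNP2. The 3 groups did not overlap. IRS1 fell by 0.61 on VN and fell by 0.41 on VNP2 (SE 0.038 for both, edgeR adjusted p = 4.21e-06 and 4.09e-05) and was 0.19 higher on VNP2 than on VN (edgeR adjusted p = 0.0101). SHC1, which links receptors to RAS, fell by 0.44 and fell by 0.60 (edgeR adjusted p = 0.000270 and 2.08e-05). GRB10, an imprinted inhibitor of IGF1R and of the insulin receptor, was 0.22 higher on VNP2 than on Matrigel and 0.20 higher than on VN (edgeR adjusted p = 0.00621 and 0.0164).

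Of 26 genes of the PI3K, AKT and mTOR cascade, 6 were called on VN (3 higher, 3 lower), 6 on VNP2 (2 higher, 4 lower) and 2 between VNP2 and VN. The share called, 23.1% against Matrigel and 7.69% between VNP2 and VN, lay near that of all genes at or above the level of IGFBP7 (21.5%, 21.1% and 6.27%). PIK3R1, a regulatory subunit of PI3K, was 0.31 and 0.43 higher on VN and VNP2 (edgeR adjusted p = 0.00212 and 0.000178), and PIK3CD, a catalytic subunit, fell by 0.45 and fell by 0.62 (edgeR adjusted p = 0.0391 and 0.00716). EIF4EBP1, the translation repressor that mTOR phosphorylates, fell by 0.21 and 0.36 (edgeR adjusted p = 0.0298 and 0.00170). PHLPP1, an AKT phosphatase, was 0.29 higher on VNP2 than on Matrigel and 0.23 higher than on VN (edgeR adjusted p = 0.00751 and 0.0363). TSC2, an inhibitor of mTOR, was 0.25 higher on VN than on Matrigel, and VNP2 was at -0.24 against VN (edgeR adjusted p = 0.0221 and 0.0294). Of 17 alternatives, these TSC2 calls held in 13 and 11, and the PIK3CD calls in 11 on VN and 16 on VNP2. The PHLPP1 calls held in 16 and 13, and that of EIF4EBP1 on VN in 12.

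Of 14 FOXO factors and FOXO induced genes, which AKT signalling holds down, 6 were called on VN (3 higher, 3 lower), 4 on VNP2 (2 higher, 2 lower) and 2 between VNP2 and VN (1 in each direction). These are 42.9%, 28.6% and 14.3% of the list, beside 15.3%, 16.6% and 5.1% of all genes. Among genes at or above the level of IGFBP7 the shares were 21.5%, 21.1% and 6.27%. DESeq2 called 6 on VN (4 higher, 2 lower), 4 on VNP2 and 3 between VNP2 and VN (1 higher, 2 lower). FOXO1 itself fell by 0.30 on VN and fell by 0.35 on VNP2 (edgeR adjusted p = 0.0159 and 0.00578). CCNG2, a cyclin of cell cycle arrest, was 0.47 higher on VN (edgeR adjusted p = 3.64e-05) and 0.17 higher on VNP2 (edgeR adjusted p = 0.0172) than on Matrigel, and the log2 difference of VNP2 from VN was -0.30 (edgeR adjusted p = 0.000853). CITED2, a transcriptional co-regulator, was 0.23 higher on VNP2 than on Matrigel and 0.34 higher than on VN (edgeR adjusted p = 0.0129 and 0.00202). On VN, SESN3 was also called higher (0.29, edgeR adjusted p = 0.00363) and TRIB1 lower (-0.26, edgeR adjusted p = 0.0447, DESeq2 adjusted p = 0.115), and on VNP2 BCL6 was called lower (-0.34, edgeR adjusted p = 0.0300). Of 17 alternatives, the calls on VN held in 17 for CCNG2, 16 for SESN3, 15 for FOXO1 and only 4 for TRIB1. Those of the called genes not named here held in 9 and 11. On VNP2 against Matrigel the calls held in 16 for FOXO1 and for CITED2, 14 for CCNG2 and 12 for BCL6. The list held calls in both directions in each pair of substrates by both tools.

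**Figure D5:**
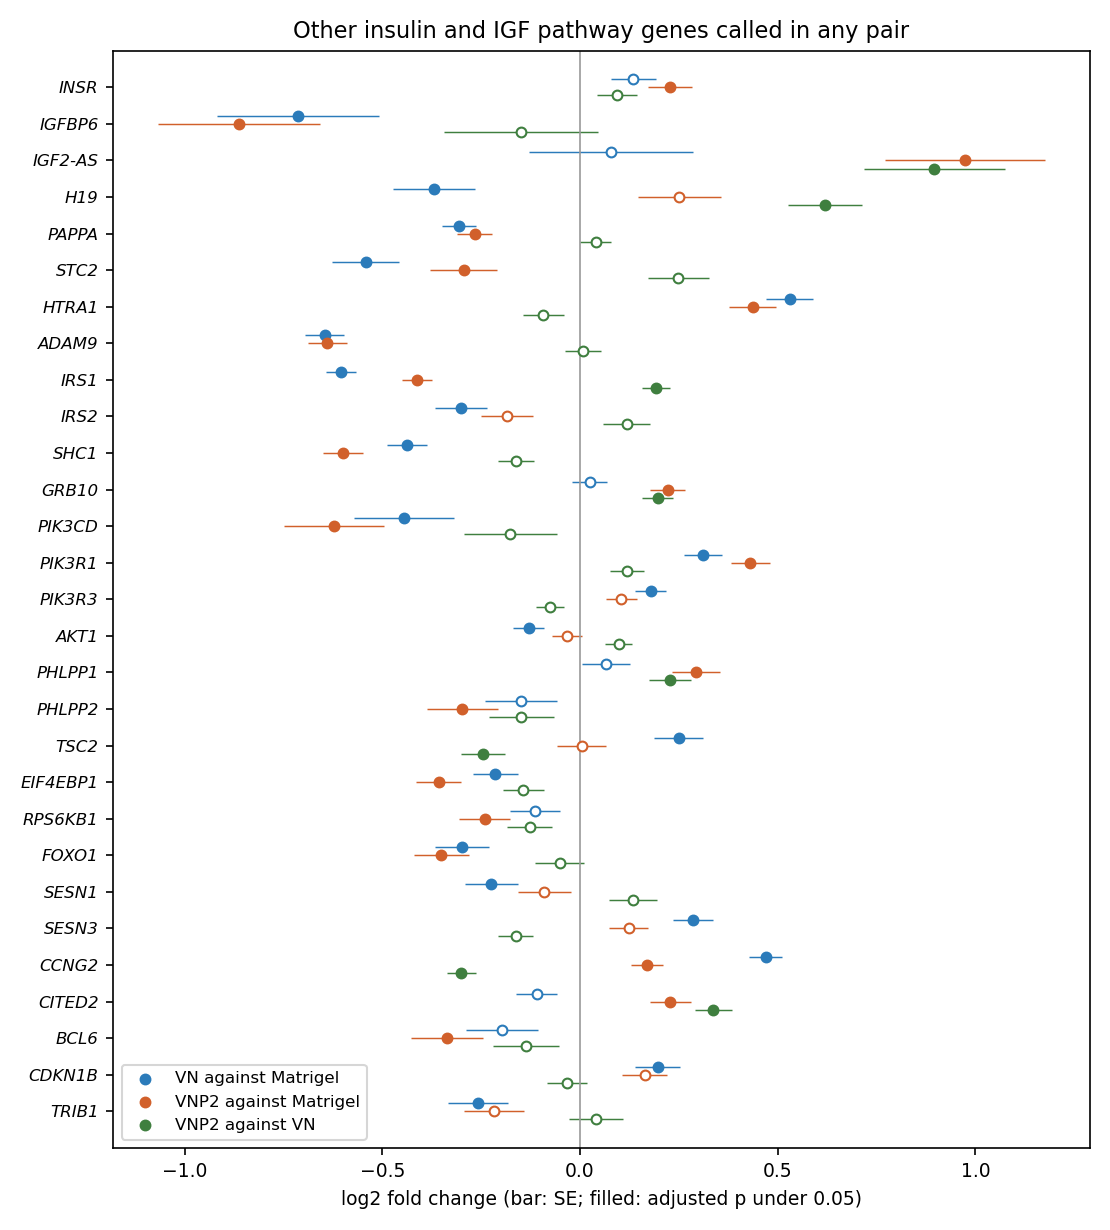
Log2 fold changes with bars of 1 SE for the other pathway genes called in at least 1 pair of substrates, with 1 colour per pair and filled points where the adjusted p was under 0.05. Calls against Matrigel lie on both sides of 0, from -0.86 for IGFBP6 to 0.97 for IGF2-AS on VNP2.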

How the data were processed

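The members and lists were chosen with earlier results of these data known. The authors trimmed reads with Trim Galore and ran Salmon on GENCODE transcripts (GRCh38.p13), and deposited estimated counts and TPM per transcript for each library. A further table deposited by the authors gives gene-level normalized counts, a signal from DESeq2 (version 1.27.12 in the submitters' processing notes). Here 205225 of 226608 transcripts, holding 98.8 to 98.9% of the counts, were matched to GENCODE v29 genes. The use of an older release leaves out newer transcripts. Estimated counts were summed per gene and rounded, with offsets for transcript length. TPM was summed per gene to compare levels between genes, and TPM sums and ratios were also set side by side between substrates. TPM does not carry the normalization of the tested values, so small differences between substrates can vary with the scale. IGF2R had a mean of 59.9 TPM on Matrigel and 60.6 on VN, but 12975 and 12394 normalized counts.

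The filter (filterByExpr, at least 10 counts in enough libraries and 15 in total) left 18201 genes. All 8 libraries entered 1 quasi-likelihood fit in edgeR 4.0.16 (R 4.3.3) with TMM normalization and no block, and two-sided p-values were adjusted by Benjamini-Hochberg over the whole table. Intervals are at 95% confidence. On simulated data for VN against Matrigel, 184 of 200 genes changed 2-fold were called and 8 unchanged genes were called. These changes were larger than those of most members, and fewer genes changed than were called in the data. The simulated counts therefore do not give the rate of missed or false calls for the members. Named genes were all members, the 5 genes most like IGF2 whose mean normalized count was 100 or more, and of each pathway list the called genes with the 2 largest rises and the 2 largest falls. Alternatives were DESeq2 1.42.0, RLE normalization, omission of the length offsets, keeping every gene with 1 count, requiring 50 counts per library, a block for replicate number, fitting each pair alone, limma 3.58.1 on the log2 of the deposited normalized counts with pseudocounts of 1 and 10, and each library left out. Promoter sequences are those of RefSeq (GRCh38.p14), and motifs were searched on both strands. A protein table was not used here.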

Additional observations from a re-analysis of the deposited data

How the results depend on the processing

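The 27 member values (9 members in 3 pairs) were recomputed under 17 alternatives, 459 values in all. Of these, 433 kept their direction and their side of the threshold, 14 passed it where the reported value had not, 7 no longer passed it and 5 changed sign. All sign changes were in values that no fit called. IGFBP7 on VN against Matrigel was -0.017 with the replicate block and -0.026 to 0.050 over the fits without 1 library, below 0 without Matrigel replicate 3 (-0.017), VN replicate 1 (-0.026) or VN replicate 2 (-0.0031), and IGF2R on VNP2 against VN was 0.029 without length offsets. The calls lost were all those of IGFBPL1 between VNP2 and VN, in 7 of the 8 fits that left out a library. The numbers of members called ranged over the fits without 1 library from 7 to 7 on VN, 6 to 7 on VNP2 and 2 to 4 between VNP2 and VN, and across the 3 substrates from 7 to 8. Other pathway genes called ranged from 10 to 22, 11 to 23 and 5 to 11 in the 3 pairs, the lowest without a Matrigel library or, between VNP2 and VN, without VNP2 replicate 2 or 3; fewer samples entered those fits. Same-numbered libraries did not deviate together (correlations of deviations from -0.0936 to 0.0457). With so few libraries per group these correlations cannot exclude a pairing, and whether the numbers pair the samples is not known. With the replicate block, 7, 8 and 3 members were called, IGF2 (0.13, adjusted p = 0.0460) and IGF2R (-0.13, adjusted p = 0.0429) being added on VNP2 against Matrigel, and 20, 19 and 9 other pathway genes. With 2 Matrigel libraries, differences of the size of those in IGF2R lay at the limit of detection, and IGF1 counts were too few for any comparison.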
